A study of Mus musculus with 24 samples.

Results

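Interferon-stimulated genes, the genes that cells switch on when interferon reaches them, were followed across thymus RNA of 4 mouse genotypes. A list of 33 such genes was searched by gene name among the gene probes of the arrays. It found 28 of them on 46 probes, and all 28 had at least 1 probe above the signal filter, so they were 28 of the 23894 genes tested. Of the other 5 names, Irf9, Cmpk2, Dhx58 and Gbp3 were on the arrays only under other names (Isgf3g, Tyki, D11Lgp2e and Gbp4) and were reached through their accessions. Their values are given where useful but they are not counted among the 28. Xaf1 was not analysed here. The probes named Ifi27 carry an accession that RefSeq assigns to Ifi27l2a, and those named Trim30 belong to Trim30a.

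Type I interferons bind a receptor whose kinases Jak1 and Tyk2 phosphorylate Stat2. With Irf9 it is part of a complex that binds the interferon-stimulated response element in the promoters of its targets. Among the targets are Irf7, which in turn raises interferon production, and effectors that sense, tag or destroy viral RNA and protein. In the thymus a low level of interferon signalling is present without infection, and maturing T cells respond to it.

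The study read the thymus of C57BL/6 mice aged 15 weeks, 6 mice per genotype, 3 females and 3 males each, without saying which mouse was which. The genotypes were wild type, p27 knockout (no p27Kip1, the Cdkn1b product, which restrains cyclin-dependent kinases), stathmin knockout (no Stmn1 product, which destabilises microtubules) and double knockout (neither protein). The sources used here do not say how the knockouts were made or whether the mice shared litters, so p-values measure the spread between these mice. Every one of the 24 2-colour arrays set a thymus (Cy5) against the same reference (Cy3), RNA pooled from fibroblasts of the 4 genotypes, and dyes were not swapped. Every value below is therefore a log2 ratio of thymus over fibroblasts, normalized within its array, and does not rank 1 gene against another. The question addressed was whether loss of p27, of stathmin or of both changed these genes in the thymus.

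The 6 slides carried 1 array of every genotype in an unchanging order, and a genotype's place on the slide cannot be told apart from the genotype. On the brightest Cdkn1b probe the wild-type and stathmin knockout mice read 1.21 to 2.30 and the mice without p27 -1.41 to 0.98. On 1 Stmn1 probe the wild-type and p27 knockout mice read 0.79 to 3.34 and the mice without stathmin -3.80 to -1.87, while the brightest Stmn1 probe overlapped, since it ran from 1.22 to 2.87 without stathmin and down to -0.76 in the p27 knockout. Replicates 5 and 6 of the p27 knockout stood apart. Their 99th percentile of Cy5 intensity was 50.7 and 19.4 kilo-units, against 56.3 to 339.8 on the other 22 arrays, and the mean correlation of their ratios with every other array was 0.59 and 0.21, where the remaining arrays had 0.78 to 0.87. Replicate 6 also went against its tissue label, with a median ratio of 0.88 for 12 thymocyte markers against 5.12 to 7.18 on the other 23 arrays. Fitted differences of the members from the p27 knockout are therefore given with and without these 2 arrays. Leaving them out did not make the genotypes equally bright. The remaining p27 knockout arrays read 75.3 to 170.6 kilo-units, and all 6 double knockout arrays 200.2 to 320.0. No double knockout array was as dim as any p27 knockout array, with or without these 2 arrays. The arrays of the double and the p27 knockout alone therefore cannot tell brightness apart from genotype. All 12 thymocyte markers were detected on at least 23 of the 24 arrays.

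The response element is a sequence through which interferon acts on its targets. Members were listed as such targets, so its frequency among them follows from the kind of list and is not separate support for it. RefSeq's table of 300-base windows (250 bases before to 50 after a listed start, build GRCm38.p6) held 20 of the 28 members, Trim30 as Trim30a. A window was searched for GAAANNGAAA on both strands (TTTCNNTTTC when read on the gene's strand), with overlapping matches counted. At least 1 window held it for 13 of the 20 members (65%), against 3.99% of all 27025 genes in the table and 3.44% of its 32851 windows. Below are windows of 6 members, those with the lowest unadjusted p in any of the 5 comparisons of genotypes among members whose window held a match, cut to the 250 bases before the start, with the matches in capitals. They show where the element lies in promoters of genes whose RNA is described next.
Oas3 (chr5:120777660-120777909, minus strand): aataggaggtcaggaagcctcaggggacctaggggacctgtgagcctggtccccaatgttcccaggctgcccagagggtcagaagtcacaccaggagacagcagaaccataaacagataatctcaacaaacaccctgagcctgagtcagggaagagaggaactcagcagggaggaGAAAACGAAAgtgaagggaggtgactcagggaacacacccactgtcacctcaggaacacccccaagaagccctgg
Ifit3 (chr19:34583279-34583528, plus strand): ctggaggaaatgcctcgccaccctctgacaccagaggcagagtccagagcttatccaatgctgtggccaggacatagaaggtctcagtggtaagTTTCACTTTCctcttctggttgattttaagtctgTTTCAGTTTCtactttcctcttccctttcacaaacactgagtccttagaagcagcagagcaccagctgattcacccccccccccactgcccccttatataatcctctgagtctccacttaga
Rsad2 (chr12:26456453-26456702, minus strand): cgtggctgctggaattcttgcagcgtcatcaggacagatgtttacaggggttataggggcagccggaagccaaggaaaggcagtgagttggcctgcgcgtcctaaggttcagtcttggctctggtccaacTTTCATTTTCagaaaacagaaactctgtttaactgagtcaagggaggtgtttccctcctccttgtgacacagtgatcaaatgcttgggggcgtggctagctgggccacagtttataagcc
Isg15 (chr4:156200819-156201068, minus strand): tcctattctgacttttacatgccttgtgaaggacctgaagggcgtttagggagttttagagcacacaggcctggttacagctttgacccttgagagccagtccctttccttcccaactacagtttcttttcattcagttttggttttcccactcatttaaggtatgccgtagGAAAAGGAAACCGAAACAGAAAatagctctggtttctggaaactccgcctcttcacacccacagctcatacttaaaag
Ifih1 (chr2:62646206-62646233, minus strand): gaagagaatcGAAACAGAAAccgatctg
Oas1a (chr5:120907526-120907775, minus strand): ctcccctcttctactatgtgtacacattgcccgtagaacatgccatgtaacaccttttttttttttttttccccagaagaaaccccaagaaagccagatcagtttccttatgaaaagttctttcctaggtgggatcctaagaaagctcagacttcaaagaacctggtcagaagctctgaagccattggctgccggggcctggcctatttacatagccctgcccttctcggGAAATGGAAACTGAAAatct
In Oas3 the match began 75 bases before the start, in Rsad2 120 bases, and in Ifit3 the pair began 156 and 122 bases before it. Isg15 held 3 overlapping matches that began between 78 and 66 bases before the start, and Oas1a held 2 that began 20 and 14 bases before it. The Ifih1 match lay 32 bases after the start, so only the 28 bases around it are shown. Windows of Irf7, Isg20, Ifi35, Ifi44, Ifit2, Oasl1 and Oasl2 held no match to these letters.

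Across the 28 members together, the double knockout thymuses had the highest values. The median ratio of the 28 genes on an array was -0.57 to 0.01 in wild type (median of 6 arrays -0.38), -0.57 to -0.05 in the p27 knockout (-0.30), -0.30 to 0.10 in the stathmin knockout (-0.23) and -0.15 to 0.28 in the double knockout (0.09). The 4 groups overlapped, and the number of arrays with a median above 0 was 4 in the double knockout, 2 in the stathmin knockout, 1 in wild type and 0 in the p27 knockout. All 6 arrays of a genotype lay above the fibroblast pool for 12 of the 28 members in the double knockout, 6 in wild type, 5 in the stathmin knockout and 1 in the p27 knockout. Over the 4 p27 knockout arrays other than replicates 5 and 6 the number was 7 of 28. All 6 arrays lay below the pool for 9 members in the double knockout, 12 in wild type, 10 in the stathmin knockout and 9 in the p27 knockout. On those 4 p27 knockout arrays 13 members lay below it. Among the wild-type mice, replicate 4 held the lowest value of the 6 for 17 of the 28 members, against 25.1% of all genes. Replicate 6 of the p27 knockout held the lowest of all 24 values for 13 of the 28 members and the highest for 5, against 25.3% and 28.3% of all genes.

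**Figure D1:**
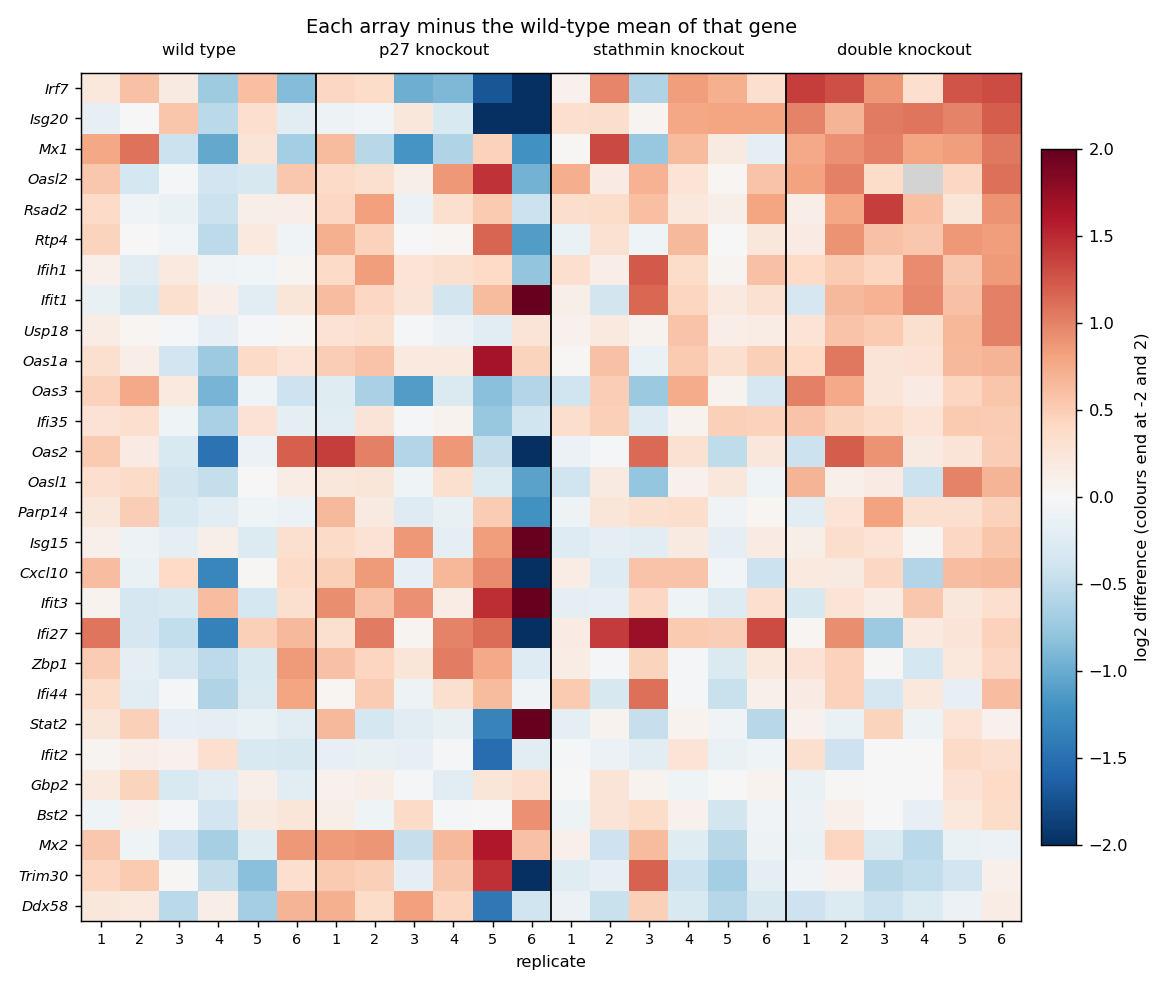
Difference of each array (columns, replicates 1 to 6 within each genotype) from the wild-type mean of that gene, in log2, for the 28 members (rows, ordered by the double knockout's difference from wild type). Red is higher and blue lower, colours end at -2 and 2, and grey is a spot left out. The double knockout columns are red in most of the upper rows, and replicates 5 and 6 of the p27 knockout hold deep colours of both kinds.

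**Figure D2:**
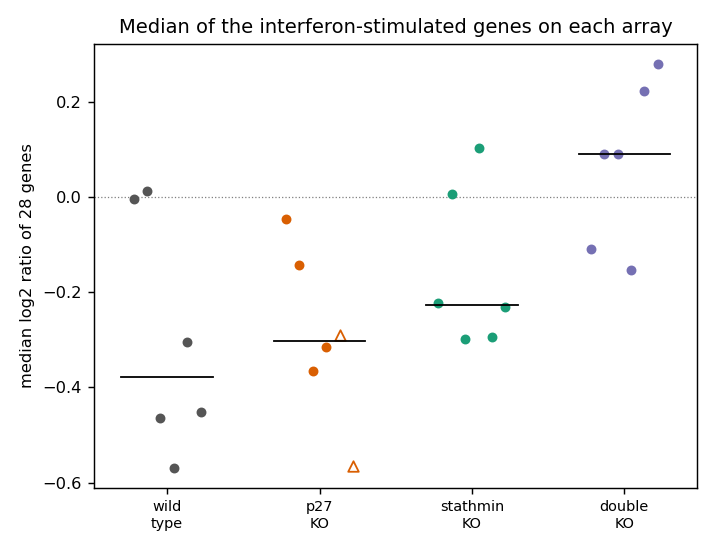
Median log2 ratio of the 28 members on each array, by genotype; the bar is the median of 6 arrays, and triangles mark replicates 5 and 6 of the p27 knockout. The double knockout arrays lie between -0.15 and 0.28 and overlap those of every other genotype.

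Only the comparison of the double with the p27 knockout had members past the threshold (limma, Benjamini-Hochberg adjusted p under 0.05 over all genes). There 8 of 28 members passed (28.6%), 6 higher and 2 lower in the double knockout, where 29.1% of all genes passed, so the members were called about as often as any gene. Their median difference was 0.37, against -0.16 over all genes, and the median within a slide lay above 0 on 5 of 6 slides (-0.17 to 0.81). Without p27 knockout replicates 5 and 6, 6 members passed (21.4%), 5 higher and 1 lower, against 14.8% of all genes, and the members' median difference was 0.17. Irf7, Isg20, Oas3, Mx1 and Usp18 passed both with and without the 2 arrays. Ifi35, Ifit3 and Mx2 passed only with them. Ddx58 passed only without them, as the 1 lower member, and its probes disagreed. With the slide as a block 7 of the 8 passed, Mx2 being lost (adjusted p = 0.0508), and the share of all genes in that fit is not given here. With each array's Cy5 brightness as a covariate 0 of the 28 passed in limma (2 at an unadjusted p under 0.05), and 0% of all genes did. The members' median difference was then 0.060. All double knockout arrays were brighter than all p27 knockout arrays. That fit therefore sets these 2 genotypes at equal brightness only through a slope, shared by all genotypes and taken as linear in log2 brightness. Whether the slope holds between them was not tested. In the authors' deposited table, whose values are not ratios centred on 0, 27 were higher, Ifit3 and Mx2 among them, and 52.7% of all genes passed.

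Against wild type, no member passed in the double knockout (0.0126% of all genes passed), the p27 knockout (0.00837%) or the stathmin knockout (0% of all genes). None passed in the double against the stathmin knockout (0.00837%) or in the interaction, which asks whether the double knockout departs from the sum of the single ones (0%). At an unadjusted p under 0.05 there were 10 members in the double knockout against wild type, all higher (35.7%, against 4.77% of all genes). Without p27 knockout replicates 5 and 6 there were 11, all higher (39.3% against 9.09%). There were 7 in the p27 knockout against wild type (4 higher; 25% against 29% of all genes), or 4 without replicates 5 and 6 (14.3% against 13.4%). There were 0 in the stathmin knockout against wild type (against 2.8%), or 3 without the 2 arrays, all higher (10.7% against 5.01%). In the double against the stathmin knockout there was 1 (3.57% against 1.29%), or 6 without the 2 arrays, all higher (21.4% against 2.93%). The interaction had 4 (14.3% against 18%), or 2 without the 2 arrays (7.14% against 9.88%). Comparisons without the p27 knockout use those arrays only in the shared estimate of the spread. The comparisons share groups, and their values are set side by side only.

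Of the regulators, Irf7, the transcription factor that amplifies the response, differed most. Its ratio was -0.58 to 0.88 in wild type (median 0.48), -2.06 to 0.70 in the p27 knockout (-0.65), -0.31 to 1.26 in the stathmin knockout (0.81) and 0.63 to 1.67 in the double knockout (1.56). The double knockout values lay high but for replicate 4, which at 0.63 was below p27 knockout replicates 1 and 2, so the groups overlapped. Irf7 was 1.93 ± 0.40 (SE) higher in the double than in the p27 knockout, 3.81-fold (limma adjusted p = 0.00422), and higher on 5 of 6 slides. Without p27 knockout replicates 5 and 6 the difference was 1.34 ± 0.36 (adjusted p = 0.0252). Against wild type Irf7 was 1.07 ± 0.40 above in the double knockout, on 6 of 6 slides, and did not pass (adjusted p = 0.71).

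Stat2 and Irf9, the partners in the complex that binds the response element, did not pass in any comparison. Stat2 read -0.01 to 0.69 in wild type (median 0.07), -1.12 to 2.28 in the p27 knockout (0.03), -0.33 to 0.29 in the stathmin knockout (0.08) and 0.08 to 0.67 in the double knockout (0.30). The 2 ends of the p27 knockout range were its replicates 5 and 6, and all groups overlapped. Irf9 read -0.63 to 0.61 in wild type (median -0.41), -0.67 to 1.31 in the p27 knockout (-0.39), -0.63 to 0.29 in the stathmin knockout (-0.36) and -0.27 to 0.36 in the double knockout (0.09), again with overlap. In the double against the p27 knockout the differences were 0.01 ± 0.34 for Stat2 and 0.16 ± 0.28 for Irf9 (adjusted p = 0.992 and 0.689). Without replicates 5 and 6 they were 0.14 ± 0.20 and 0.38 ± 0.24 (adjusted p = 0.644 and 0.257). A dimmer Irf9 probe differed by 1.49 ± 0.37 in the same comparison (adjusted p = 0.00794 over all probes), and by 1.65 ± 0.36 when those 2 arrays were left out, so the 2 probes of this gene disagreed.

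**Figure D3:**
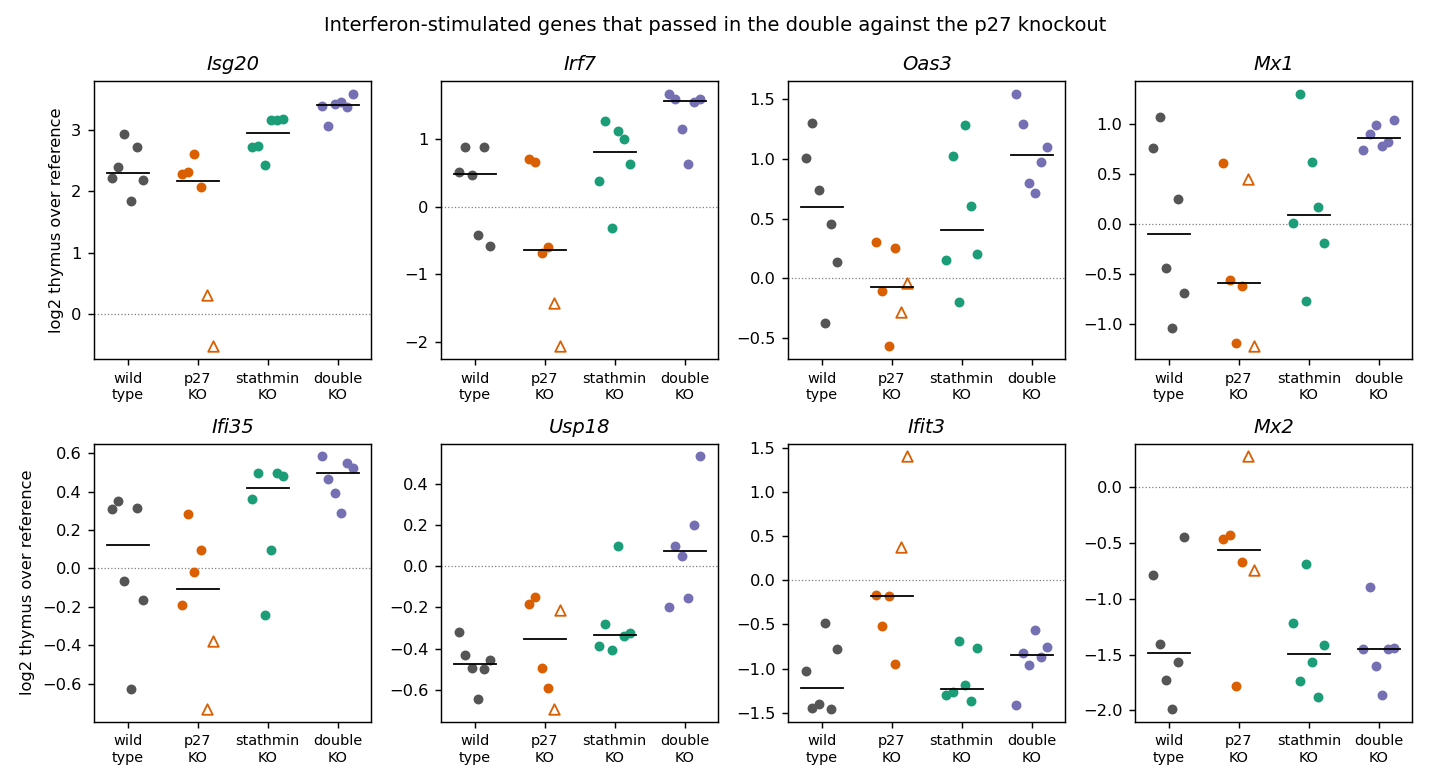
Log2 ratio of thymus over the fibroblast pool on each array for the 8 members that passed in the double against the p27 knockout; the bar is the median of 6 arrays, and triangles mark replicates 5 and 6 of the p27 knockout. For Isg20, Oas3, Mx1 and Ifi35 the 6 double knockout arrays lie above all 6 p27 knockout arrays.

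Among the effectors, Isg20, an exonuclease that degrades RNA, separated the genotypes most clearly. It read 1.85 to 2.93 in wild type (median 2.30), -0.52 to 2.60 in the p27 knockout (2.17), 2.43 to 3.17 in the stathmin knockout (2.94) and 3.06 to 3.58 in the double knockout (3.40). All 6 double knockout values lay above all wild-type and all p27 knockout values, and overlapped only those of the stathmin knockout. The double knockout was 1.87 ± 0.39 above the p27 knockout, 3.65-fold (adjusted p = 0.00417), of which 1.06 ± 0.20 was left without replicates 5 and 6 (adjusted p = 0.0164). Those 2 arrays read 0.31 and -0.52, against 2.07 to 2.60 on the other 4. Against wild type it was 1.00 ± 0.39 higher on 6 of 6 slides and did not pass with all arrays (adjusted p = 0.767). It passed when p27 knockout replicates 5 and 6 were left out of the estimate of the spread (SE 0.18, adjusted p = 0.0179), as the 1 member that did, where 0.193% of all genes passed. A second Isg20 probe gave 2.11 ± 0.47 in the double against the p27 knockout and 1.09 ± 0.22 without the 2 arrays.

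The oligoadenylate synthetases make the messenger that activates RNase L. Oas3 read -0.38 to 1.30 in wild type (median 0.60), -0.57 to 0.31 in the p27 knockout (-0.07), -0.20 to 1.28 in the stathmin knockout (0.41) and 0.71 to 1.55 in the double knockout (1.04). The p27 knockout values were low throughout, and none reached the lowest of the double knockout. Oas3 was 1.15 ± 0.27 higher in the double than in the p27 knockout, 2.21-fold (adjusted p = 0.00662), on 6 of 6 slides. The difference was as large without replicates 5 and 6, at 1.10 ± 0.31 (adjusted p = 0.0276), and 1.03 ± 0.21 on the second Oas3 probe (0.94 ± 0.22 without the 2 arrays). In Cy5, 5 of 6 wild-type arrays and all others had a signal well above background on the probe used, but its Cy3 signal, the fibroblast pool, was well above background on only 4 of the 24 arrays. The ratios of Oas3 therefore rest on a reference that was mostly not well above background. Against wild type Oas3 was 0.53 ± 0.27 above in the double knockout and fell by 0.62 ± 0.27 in the p27 knockout, neither past the threshold (adjusted p = 1.00 and 0.14, the latter -0.57 ± 0.31 without replicates 5 and 6).

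Oas1a, of the same family, did not follow Oas3. It read -1.14 to -0.03 in wild type (median -0.21), -0.22 to 1.24 in the p27 knockout (0.05), -0.54 to 0.18 in the stathmin knockout (-0.01) and -0.16 to 0.65 in the double knockout (0.11). The 4 groups overlapped, and 1 p27 knockout array (replicate 5) lay far above the rest. Oas1a was 0.59 ± 0.24 above wild type in the p27 knockout and 0.55 ± 0.24 above it in the double knockout (adjusted p = 0.12 and 0.954). Without replicates 5 and 6 the p27 knockout was 0.36 ± 0.22 above wild type (adjusted p = 0.422). The double and p27 knockouts differed by -0.04 ± 0.24, and by 0.19 ± 0.22 without the 2 arrays.

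Oasl1 and Oasl2 are related proteins, of which Oasl1 restrains translation of Irf7. Oasl1 read 0.01 to 0.87 in wild type (median 0.55), -0.59 to 0.81 in the p27 knockout (0.55), -0.28 to 0.71 in the stathmin knockout (0.48) and 0.06 to 1.48 in the double knockout (0.90). Oasl2 read -0.51 to 0.41 in wild type (median -0.30), -1.08 to 1.32 in the p27 knockout (0.22), -0.10 to 0.60 in the stathmin knockout (0.28) and 0.23 to 0.97 on 5 double knockout arrays (0.67), the sixth spot having been left out. Both overlapped between all genotypes. The double knockout exceeded the stathmin knockout by 0.49 ± 0.26 for Oasl1, and wild type by 0.74 ± 0.31 for Oasl2 (adjusted p = 1.00 and 0.88). Oas2 differed by 0.49 ± 0.51 between the double and the p27 knockout with all arrays and by -0.23 ± 0.44 without replicates 5 and 6.

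Mx1 and Mx2 belong to a family of GTPase genes. Their RNA differed in opposite directions between the double and the p27 knockout, and whether these mice make working proteins from it was not read. For Mx2 the difference passed only with p27 knockout replicates 5 and 6. Mx1 read -1.03 to 1.07 in wild type (median -0.09), -1.22 to 0.61 in the p27 knockout (-0.59), -0.76 to 1.31 in the stathmin knockout (0.09) and 0.74 to 1.04 in the double knockout (0.86). The double knockout values lay close together (SD 0.12, against 0.71 to 0.84 in the other genotypes) and above every p27 knockout value. Mx1 was 1.30 ± 0.38 higher in the double than in the p27 knockout, 2.46-fold (adjusted p = 0.0159), and 1.32 ± 0.40 without replicates 5 and 6 (adjusted p = 0.035). The second probe gave 1.08 ± 0.29, and 1.07 ± 0.33 without them. The used probe was well above background on 5 of 6 wild-type and 5 of 6 p27 knockout arrays, and on all others.

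Mx2 read -1.99 to -0.45 in wild type (median -1.48), -1.78 to 0.28 in the p27 knockout (-0.57), -1.88 to -0.69 in the stathmin knockout (-1.49) and -1.86 to -0.89 in the double knockout (-1.45). Here 5 of the 6 p27 knockout arrays were high and replicate 3 was low. Mx2 fell by 0.81 ± 0.29 in the double against the p27 knockout, 1.76-fold lower (adjusted p = 0.0413), on 5 of 6 slides. Without replicates 5 and 6 it fell by 0.61 ± 0.30 and did not pass (adjusted p = 0.153).

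The Ifit proteins bind foreign RNA and block its translation. Ifit3 read -1.46 to -0.49 in wild type (median -1.22), -0.95 to 1.40 in the p27 knockout (-0.17), -1.36 to -0.68 in the stathmin knockout (-1.22) and -1.41 to -0.57 in the double knockout (-0.84). The p27 knockout was high, most of all in replicates 6 and 5, and overlapped every other genotype. Ifit3 fell by 0.89 ± 0.28 in the double against the p27 knockout, 1.85-fold lower (adjusted p = 0.0248), on 6 of 6 slides. Without replicates 5 and 6 it fell by 0.44 ± 0.22 and did not pass (adjusted p = 0.152). The p27 knockout was 1.09 ± 0.28 above wild type, on 6 of 6 slides, which did not pass either (adjusted p = 0.0797, and 0.64 ± 0.22 without the 2 arrays). The other Ifit3 probe went the opposite way, 0.35 ± 0.16 higher in the double than in the p27 knockout (adjusted p = 0.1 over all probes). That probe has its name from the array file and, unlike the probe used, was not matched to Ifit3 through RefSeq. Without replicates 5 and 6 that probe was 0.45 ± 0.15 higher and passed (adjusted p = 0.0464 over all probes), so the 2 probes of Ifit3 disagreed in direction. Ifit2 and Ifit1 differed by 0.48 ± 0.21 and -0.02 ± 0.31 between the double and the p27 knockout, and by 0.23 ± 0.16 and 0.36 ± 0.27 without the 2 arrays, and did not pass.

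Isg15, a ubiquitin-like tag joined to proteins during the response, and Usp18, the protease that removes it and also damps the receptor, had different patterns. Isg15 read -2.60 to -2.01 in wild type (median -2.33), -2.51 to -0.06 in the p27 knockout (-1.72), -2.59 to -2.15 in the stathmin knockout (-2.51) and -2.31 to -1.78 in the double knockout (-2.02). The p27 knockout spread upwards, with replicate 6 highest. Isg15 was 0.74 ± 0.26 above wild type in the p27 knockout (adjusted p = 0.0884), and 0.34 ± 0.18 without replicates 5 and 6 (adjusted p = 0.382).

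Usp18 read -0.65 to -0.32 in wild type (median -0.47), -0.69 to -0.15 in the p27 knockout (-0.36), -0.41 to 0.10 in the stathmin knockout (-0.33) and -0.20 to 0.53 in the double knockout (0.07). All 6 double knockout values lay above all 6 wild-type values, while the lowest overlapped the p27 and stathmin knockouts. Usp18 was 0.48 ± 0.15 higher in the double than in the p27 knockout, 1.39-fold (adjusted p = 0.0221), on 6 of 6 slides, and 0.44 ± 0.15 without replicates 5 and 6 (adjusted p = 0.0496). It was 0.56 ± 0.15 above wild type on 6 of 6 slides and 0.36 ± 0.15 above the stathmin knockout on 5 of 6, and passed in neither (adjusted p = 0.226 and 1.00).

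Ifih1 (MDA5), Ddx58 (RIG-I) and Dhx58 (LGP2) sense double-stranded RNA in the cytosol. Ifih1 read -1.43 to -1.02 in wild type (median -1.21), -2.00 to -0.38 in the p27 knockout (-0.86), -1.15 to 0.01 in the stathmin knockout (-0.86) and -0.81 to -0.27 in the double knockout (-0.69). The double knockout lay above wild type on every array, and p27 knockout replicate 6 lay far below the rest. Ifih1 was 0.61 ± 0.22 above wild type in the double knockout and 0.45 ± 0.22 in the stathmin knockout, each on 6 of 6 slides, without passing (adjusted p = 0.638 and 1.00). Its second probe was 1.24 ± 0.27 higher in the double than in the p27 knockout (adjusted p = 0.0042 over all probes), where the probe used gave 0.37 ± 0.22. Without p27 knockout replicates 5 and 6 the values were 1.20 ± 0.30 (adjusted p = 0.0222) and 0.16 ± 0.19.

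Ddx58 had probes that disagreed. The brightest has its name from the array file and, unlike the others, was not matched to Ddx58 through RefSeq. It differed by -0.31 ± 0.31 between the double and the p27 knockout, and fell by 0.81 ± 0.23 without replicates 5 and 6 (adjusted p = 0.0302). In the same comparison 2 other Ddx58 probes were 1.30 ± 0.37 and 1.49 ± 0.31 higher (adjusted p = 0.0138 and 0.00392 over all probes), and 1.09 ± 0.41 and 1.00 ± 0.26 without the 2 arrays (adjusted p = 0.0697 and 0.0238). The remaining probe differed by 0.15 ± 0.29 without the 2 arrays (adjusted p = 0.736 over all probes). No direction is therefore given for this gene.

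Rsad2 (viperin), which makes a chain-terminating nucleotide, read -1.68 to -0.86 in wild type (median -1.22), -1.68 to -0.43 in the p27 knockout (-0.88), -1.13 to -0.45 in the stathmin knockout (-0.88) and -1.11 to 0.13 in the double knockout (-0.56). Wild type was lowest and the groups overlapped. Rsad2 was 0.67 ± 0.22 above wild type in the double knockout, on 5 of 6 slides (adjusted p = 0.485), and 0.41 ± 0.22 in the stathmin knockout (adjusted p = 1.00). The probe used gave 0.42 ± 0.22 in the double against the p27 knockout, while 2 dimmer probes gave 1.15 ± 0.26 and 1.74 ± 0.28 (adjusted p = 0.00545 and 0.00239 over all probes). Without p27 knockout replicates 5 and 6 these became 0.32 ± 0.23 for the probe used and 1.19 ± 0.29 and 1.46 ± 0.29 for the others (adjusted p = 0.0216 and 0.0184).

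Ifi35, a partner of Nmi in inflammatory signalling, read -0.63 to 0.35 in wild type (median 0.12), -0.73 to 0.28 in the p27 knockout (-0.11), -0.24 to 0.50 in the stathmin knockout (0.42) and 0.29 to 0.58 in the double knockout (0.50). Its lowest double knockout value was just above the highest p27 knockout value. Ifi35 was 0.63 ± 0.19 higher in the double than in the p27 knockout, 1.54-fold (adjusted p = 0.0209), on 6 of 6 slides, and 0.43 ± 0.19 without replicates 5 and 6, where it did not pass (adjusted p = 0.109).

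The other members (Ifit1, Ifit2, Oas2, Ifi27, Ifi44, Bst2, Rtp4, Zbp1, Gbp2, Parp14, Cxcl10, Trim30 and Ddx58) passed in no comparison with all arrays. Rtp4, a receptor-transporting protein, was 0.65 ± 0.27 above wild type in the double knockout on 5 of 6 slides (adjusted p = 0.873). Ifi27 varied most between mice in the p27 knockout (SD 2.90, against 0.54 to 0.89 elsewhere), since replicate 6 read -1.47 and its other 5 arrays 4.91 to 5.97. Gbp2, a GTPase that attacks vacuoles of pathogens, differed from wild type by 0.10 ± 0.15 in the p27 (-0.00 ± 0.15 without replicates 5 and 6), 0.05 ± 0.15 in the stathmin and 0.10 ± 0.15 in the double knockout.

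Over the 17 further probes of members, 12 had the sign of the probe used in the double against the p27 knockout. In that comparison 9 of the 17 were higher past the threshold and 1 was lower, and without p27 knockout replicates 5 and 6 these counts were 8 and 0. Over all probes that passed the signal filter 13.3% were higher and 16.8% lower in that comparison, and 6.05% and 8.95% without the 2 arrays. The 9 include probes of Rsad2, Ifih1 and Ddx58, whose brightest probe did not pass or fell. In the double knockout against wild type 11 of the 17 had the sign of the probe used.

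The 6 arrays of each genotype did not overlap for 4 of 28 members in the double against the p27 knockout (Isg20, Oas3, Mx1 and Ifi35, all higher; 12.1% of all genes did not overlap) and for 3 in the double knockout against wild type (Isg20, Usp18 and Ifih1, all higher; 1.04% of all genes).

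**Figure D4:**
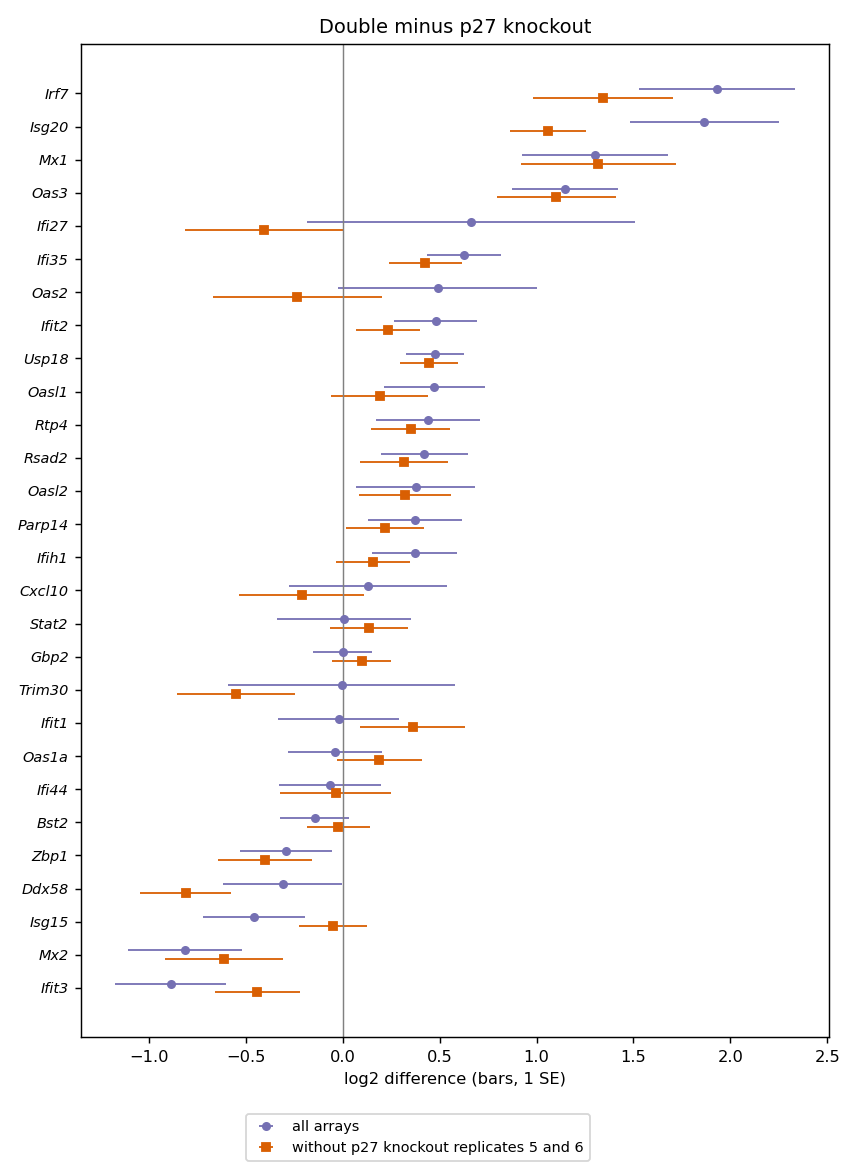
Log2 difference of the double minus the p27 knockout for the 28 members, with bars of 1 SE; circles use all arrays, squares leave out p27 knockout replicates 5 and 6. Mx1, Oas3 and Usp18 change little, Irf7 and Isg20 shrink but stay above 0, and the differences of Ifi27, Oas2 and Cxcl10 turn from above to below 0.

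Against wild type, the double knockout had 25 of 28 members above 0 (89.3%, against 44.5% of all genes) and a median difference of 0.34 (all genes -0.04). The median within a slide was above 0 on 5 of 6 slides (-0.17 to 0.73). In the stathmin knockout 20 of 28 members were above 0 (median 0.14) and the slide medians ran from -0.31 to 0.57. In the p27 knockout 17 were above 0 (median 0.10), or 21 without replicates 5 and 6 (median 0.27). Over all genes the p27 knockout had a median of 0.15, and 0.12 without the 2 arrays, so the members' median lay below that of all genes with them and above it without them. The double exceeded the stathmin knockout for 24 of 28 members (median 0.22, all genes -0.02), with slide medians of -0.13 to 0.44. For its 3 lowest p the 95% intervals of the difference ran from 0.05 to 0.67 for Usp18, -0.00 to 1.12 for Oas3 and -0.05 to 1.03 for Oasl1. None of these differences passed for a single member, as given above.

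**Figure D5:**
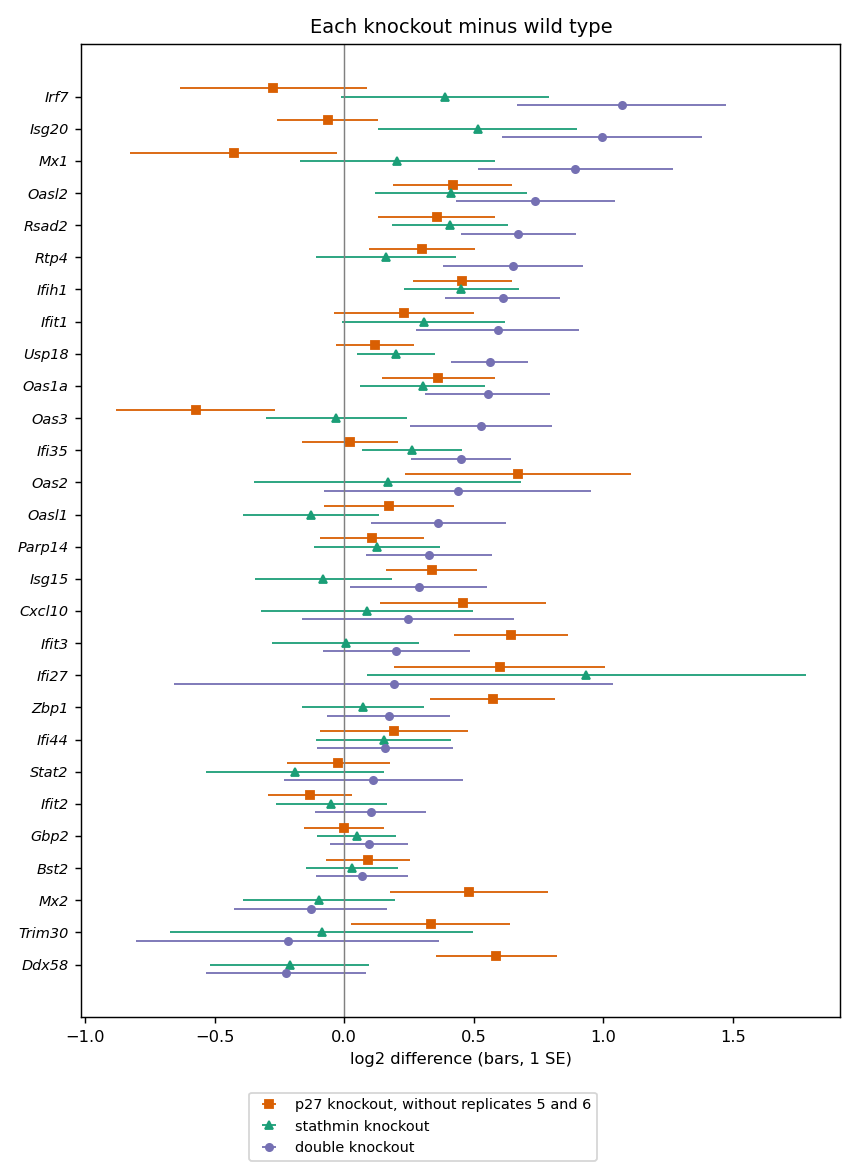
Log2 difference from wild type of the 28 members in the p27 knockout (squares, without replicates 5 and 6), the stathmin knockout (triangles) and the double knockout (circles), with bars of 1 SE. The double knockout lies above 0 for all but Mx2, Trim30 and Ddx58, and for Irf7, Isg20, Mx1 and Oas3 the p27 knockout lies below 0.

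The interaction had no member past the threshold. Its highest values were 1.54 ± 0.57 for Irf7, 1.35 ± 0.54 for Isg20, 1.18 ± 0.39 for Oas3 and 1.10 ± 0.53 for Mx1, meaning that the double knockout was higher than the 2 single knockouts would add up to (adjusted p = 0.262, 0.262, 0.262 and 0.278). Leaving out the 2 dim p27 knockout arrays gave 0.95 ± 0.48, 0.55 ± 0.26, 1.13 ± 0.41 and 1.11 ± 0.54 (adjusted p = 0.48 for each). Its lowest values were -0.89 ± 0.40 for Ifit3 and -0.72 ± 0.42 for Mx2 (adjusted p = 0.264 and 0.331), and -0.45 ± 0.29 and -0.52 ± 0.41 without the 2 arrays. The value furthest from 0 without them was that of Ifi27, at -1.34 ± 0.55 (adjusted p = 0.48), which had been -0.27 ± 1.20. Of the 28 members 15 lay above 0, with a median of 0.03 against -0.17 over all genes, and without the 2 arrays 14 did, with a median of -0.01 against -0.14.

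The rest of the pathway was read from lists of 102 tested genes. None passed in any comparison but the double against the p27 knockout, where 12 were higher and 16 lower (6 and 10 without replicates 5 and 6). These were 27.5% and 15.7% of the list, near the 29.1% and 14.8% of all genes. At an unadjusted p under 0.05 there were 8 of the 102 in the double knockout against wild type (4.77% of all genes), 33 in the p27 knockout (29%) and 2 in the stathmin knockout (2.8%) against wild type, 1 in the double against the stathmin knockout (1.29%) and 20 in the interaction (18%). Of the ligands, 1 of 13 was higher and 6 were lower (0 and 5 without the 2 arrays). Ifna13 fell by 1.44 ± 0.32 and Ifnab fell by 2.02 ± 0.46 (adjusted p = 0.00493 and 0.00545), each on 6 of 6 slides, and both passed without the 2 arrays (adjusted p = 0.0214 for both). Interferon alpha genes are near-identical copies, so their probes may share signal. Ifng, the type II interferon of T and natural killer cells, was the ligand that was higher, by 1.19 ± 0.39 (adjusted p = 0.0258, and 0.071 without the 2 arrays). In the double knockout against wild type Ifng was 1.45 ± 0.39 above, on 5 of 6 slides, and it was 0.67 ± 0.39 above the stathmin knockout (adjusted p = 0.229 and 1.00).

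Of the receptors 0 of 6 were higher and 1 lower (the same counts without the 2 arrays), and of the signal transducers 2 of 13 were higher and 1 lower (0 and 1). Of the nucleic acid sensors and adaptors 1 of 14 was higher and 3 were lower (1 and 2). Tlr3, the endosomal receptor for double-stranded RNA, was 1.87 ± 0.37 higher in the double than in the p27 knockout (adjusted p = 0.00417), whereas Tlr9, the receptor for unmethylated DNA, fell by 3.15 ± 0.65, and Cgas, the cytosolic DNA sensor, fell by 1.73 ± 0.41 (adjusted p = 0.00417 and 0.00627). All 3 passed without replicates 5 and 6 (adjusted p = 0.0214, 0.0249 and 0.0289). In the p27 knockout Tlr9 was 2.32 ± 0.65 above wild type and Mov10, an RNA helicase, 0.88 ± 0.21, without passing (adjusted p = 0.0797 for both, and 0.37 without the 2 arrays). In the stathmin knockout Tlr8 and Ifnar2, a chain of the type I receptor, were 0.65 ± 0.24 and 0.43 ± 0.18 above wild type, each on 6 of 6 slides (adjusted p = 1.00 for both).

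Of 56 other interferon-inducible genes, 8 were higher and 5 lower in the double against the p27 knockout, or 5 and 1 without replicates 5 and 6. Slfn1, a growth regulator of T cells, was 2.20 ± 0.49 higher (adjusted p = 0.00502, and 0.0309 without the 2 arrays). Slfn1 was also 1.16 ± 0.49 above the stathmin knockout, and Tgtp1, a GTPase of T cells, 0.70 ± 0.24 above wild type, in the double knockout (adjusted p = 1.00 and 0.521). Against wild type 43 of the 56 lay above 0 in the double knockout, with a median of 0.17.

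Markers of other cells passed in the double against the p27 knockout. A list's level on an array is the median ratio of its markers, and in bulk thymus RNA fewer cells of a type and less RNA per cell cannot be told apart. In that comparison 29 of 103 markers passed (28.2%, against 29.1% of all genes), 21 higher and 8 lower. No thymocyte marker of 12 passed, while 4 of 8 adipocyte, 3 of 8 cortical and 3 of 7 medullary epithelial, 3 of 7 endothelial, 3 of 8 natural killer and 2 of 9 macrophage markers were higher and 5 of 8 fibroblast markers lower. Of dendritic cell markers 2 of 8 were higher and 1 lower, 1 of 8 B cell markers was higher, and 1 of 9 plasmacytoid dendritic cell and 1 of 7 neutrophil markers were lower. Without replicates 5 and 6, 22 passed (21.4%, against 14.8% of all genes), 10 higher and 12 lower. The lower ones then held 6 of the 12 thymocyte markers, whose median difference was 0.28 with all arrays and -0.69 without the 2, and 0 of the 8 fibroblast markers. The higher ones held 3 of the 8 cortical and 0 of the 7 medullary epithelial, 1 of the 8 adipocyte, 2 of the 7 endothelial and 1 of the 8 natural killer markers. In the double knockout against wild type 0 of 103 markers passed in limma (10 at an unadjusted p under 0.05). Macrophage and monocyte levels were -0.63 to 0.72 in wild type, -0.46 to 0.23 in the p27 knockout, -0.02 to 0.79 in the stathmin knockout and 0.19 to 0.83 in the double knockout. Medullary epithelial levels were 2.10 to 3.09, 0.11 to 3.92, 1.69 to 4.11 and 2.66 to 3.55 in the same order. Plasmacytoid dendritic cell levels, of cells that make much interferon, were 1.50 to 3.38, 0.11 to 3.48, 1.58 to 3.13 and 2.67 to 3.58. All 9 markers each of plasmacytoid and macrophage lists were detected on at least 22 arrays. Their part in the members' differences was not tested.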

How the data were processed

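RNA of 24 thymuses was hybridised to 2-colour Agilent arrays. Groups were taken from the labels. The members and gene lists were chosen with earlier results of these data known. The authors deposited spot and background intensity of both channels, extracted with Agilent Feature Extraction 9.1.3.1 without background subtraction, per the file headers, and a log10 ratio that was spatially detrended and dye-normalized, per the file headers. The authors also deposited log2 values in a series table. They tracked the mean brightness of the 2 channels, with column medians of 8.62 to 10.56, and were used (24 columns) as an alternative only. How they were made and centred is unknown.

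Ratios of Cy5 over Cy3 were computed from the intensities with limma 3.58.1 in R 4.3.3 (with the data.table package, 1.17.8): normexp background (offset 50), control spots without weight, loess within each array, outlier spots left out (mean 68.4 and at most 314 on an array), spots of a probe averaged, and no scaling between arrays. Of 45018 spots, 41174 probes were of genes. Probes needed a Cy5 signal well above background on 6 or more of 24 arrays (35192 probes), and the brightest stood for its gene (23894 genes). Gene names followed the RefSeq table of GRCm38.p6 for 22951 probes by accession and 3109 by synonym, and otherwise the file. No 2 arrays held identical signals (0 pairs). The number of arrays limits the precision.

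limma's moderated test was fitted over all genes and all 24 arrays, with a term for genotype alone; p-values were adjusted by Benjamini-Hochberg (threshold 0.05). It was tested on simulated data with the same spread in every genotype and changes planted only in the double knockout. The median SD over all genes was 0.69 in the p27 knockout and 0.30 to 0.39 in the others. The simulation therefore does not cover the wider spread of the p27 knockout. Values with a ± are limma's estimate and standard error. Named were Irf7, Irf9, Stat2, members past the threshold, the 3 members with the lowest p in each of 5 comparisons, and of the other pathway genes up to 6 past the threshold and the 2 with the lowest p per comparison. Other members and probes were named after their values were seen. Alternatives covered background, normalization, channel, filter, probe choice, slide, replicate number, array quality and each array left out. The main fit did not pair samples by replicate number. In wild type, stathmin and double knockout the same number meant the same slide, but the p27 knockout array of that number was on another.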

Additional observations from a re-analysis of the deposited data

Results flagged for a closer look

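In 68 groups of 6 arrays (5 for Oasl2 in the double knockout), 17 quantities in 4 genotypes, 1 array stood far from the others 3 times. Chance flags about 5% of such groups. Usp18 in stathmin knockout replicate 4 was 0.10, against -0.41 to -0.28 on the other 5 arrays. Oas1a in p27 knockout replicate 5 was 1.24, against -0.22 to 0.16. Ifih1 in p27 knockout replicate 6 was -2.00, against -0.94 to -0.38. Of the 3, 2 lay on the dim p27 knockout arrays.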

How the results depend on the processing

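In the double against the p27 knockout, where 8 members passed, 5 passed with ratios scaled between arrays (20% of all genes passed), 27 (all higher) in the authors' deposited table (52.7%), 0 (2 at an unadjusted p under 0.05) with array brightness as a covariate and 5 with only these groups in the fit (14.7%). The members' median difference, 0.37, was then 0.63 with Agilent's own log ratios, 0.66 with the Cy5 channel alone, 0.13 scaled, 1.15 in the deposited table, 0.060 with brightness, 0.17 with slide as a block and array weights, and 0.17 without p27 knockout replicates 5 and 6 (0.14 with slide as a block too). Leaving out 1 array in turn gave 5 to 8 members, the 5 without p27 knockout replicate 5, where 21.7% of all genes passed. The medians were 0.13 (without p27 knockout replicate 6) to 0.39. Irf7, Isg20, Oas3 and Mx1 passed whichever array was left out, while Mx2 passed in 16 of 24 such fits. Ifit3 turned to 0.69 in the deposited table and 0.21 with brightness, and Mx2 to 0.58 in the deposited table. In the p27 knockout against wild type the median was -0.20 with Agilent's ratios, -0.31 with Cy5 alone, -0.71 in the deposited table and 0.30 without the 2 dim arrays and with array weights, and its leave-one-out range was 0.04 to 0.30. Members past the threshold there were 4 in the deposited table (all lower, 17.7% of all genes) and 2 with array weights (Ifit3 and, lower, Oas3, 8.32%). With slide as a block and array weights there were 5 (25.3%), and 0 to 2 with 1 array left out. Ifit3 passed without wild-type replicate 4 (2.44% of all genes) or 6 (10%), or without p27 knockout replicate 1 (10.6%) or 2 (7.04%). Ifit3 and Isg15 passed without p27 knockout replicate 4 (11.8%). In the deposited table Ifit3 was -0.27, Isg15 -0.40 and Oas1a -0.60. In the double knockout against wild type 6 passed with array weights (1.40% of all genes passed), 3 with slide as a block and array weights (1.34%), 1 without the 2 dim arrays (0.193%; also 1 with slide as a block, 0.285%) and 4 without them and with array weights (1.13%), all higher, and 0 with any single array left out. The interaction's median, 0.03, was 0.46 with Agilent's ratios, 0.47 with Cy5 alone, 0.85 in the deposited table and 0.24 with the mean of a gene's probes. The cause of these changes was not tested. The values of the deposited table were not ratios centred on 0, with column medians of 8.62 to 10.56. Settings that join the 2 dim arrays with another choice were chosen after seeing the data.

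With the replicate block 7 members passed in the double against the p27 knockout. The share of all genes that passed in that fit is not given here, so the count cannot be set against it. Without a block the share was 29.1%. None passed in the other comparisons. Same-numbered arrays of different genotypes had correlated deviations (r above 0.1) in 15 of 36 pairs, down to -0.56, and 3 of 24 arrays correlated best with their own number. Slide numbers from the file headers did so in 21 of 36 pairs, down to -0.36. By slide, 8 of 24 arrays correlated best with an array of their own number. The numberings overlap, since arrays of the same replicate number shared a slide in all genotypes but the p27 knockout.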
